A study of Rattus norvegicus with 24 samples.

Results

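The cytosolic ribosomal protein genes encode the protein subunits of the ribosome that translates nuclear messages. Members were taken from the probes of the array by symbol: every name that starts with Rpl or Rps and a digit, plus Rpsa, Rplp0, Rplp1 and Rplp2, without the Rps6k kinases, which share only letters of the name. This gave 67 genes of the 13337 genes with a name on the array. Sorted by name, they comprise 43 genes of the large subunit (60S) and 23 of the small subunit (40S). The remaining gene, Rps19bp1, fits the naming rule but encodes a binding protein and not a subunit. Only Rps9 had more than 1 probe, and the probe with the highest mean was used for each gene.

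Female Sprague-Dawley rats (12 in all) were operated on at 3 months of age, and RNA was taken 4 weeks later from left ventricle outside the infarct. The 4 MI+T4 rats had a myocardial infarction (MI) from tying off the left anterior descending artery of the heart and carried a thyroxine (T4) pellet of 3.3 mg made for release over 60 days. The 4 MI rats had the same ligation with a placebo pellet, and the 4 Sham rats had the operation without ligation and a placebo pellet. Rats with infarcts below or above the size limits of the study had been excluded. The animals of each group were drawn at random from the rest, so the MI groups stand for infarcts within those limits. Each rat was hybridized to 2 Illumina BeadChip arrays, and its 2 arrays were averaged. All 9 measured cardiomyocyte markers lay above the median signal of all probes (7.81 on the log2 scale), and so did 62 of the 67 members. The other 5 (Rpl11, Rpl12, Rpl34, Rpl36a and Rps19) had mean signals of 7.44 to 7.69, near the floor of the array, where a difference can be understated. Signals of different probes cannot be set against each other, so the levels below are compared between rats only. In whole tissue, fewer cells of a type and less RNA per cell cannot be told apart.

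Each ribosome needs every subunit protein once or a few times, and cells make these proteins in concert. Most mammalian ribosomal protein messages begin with a terminal oligopyrimidine (TOP) tract, a run of C and T at the very start, through which their translation is held back or released together downstream of the mTOR kinase. Because that control acts on translation, the amount of message can stay even while ribosome production changes. Growing heart muscle is known for making more ribosomes, and thyroid hormone and mechanical load both enlarge heart muscle.

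A start sequence was found in RefSeq (build GRCr8) for 56 of the 67 genes, 1 of them (Rps9) by symbol. Among the 55 that encode subunits, 30 genes (54.5%) carried 5 or more pyrimidines (C or T) in a row beginning at the annotated start, read on the strand of the gene. The same tract stood at the start of 5.55% of the 27457 genes of the table and of 3 of 63 genes of the mitochondrial ribosome (4.76%). With a run of 5 pyrimidines that begins anywhere from 5 bases before to 5 bases after the start, the shares were 67.3% of the members and 25.2% of all genes. The sequences below belong to the 4 genes called between MI and Sham (Rps27, Rpl39, Rpl41 and Rps2), to Rps9 and Rps16, which are described for their values, and to the pair Rpl3 and Rpl3l. Each shows 15 bases before and 15 bases from the annotated start, with capitals for the unbroken run of C and T that begins at the start.
Rps27, chr2:177964592-177964621, minus strand: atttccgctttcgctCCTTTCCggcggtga
Rpl39, chrX:121195882-121195911, minus strand: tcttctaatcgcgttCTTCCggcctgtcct
Rpl41, chr7:1563483-1563512, minus strand: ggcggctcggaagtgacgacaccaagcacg
Rps2, chr10:14251833-14251862, plus strand: cctcttctttttcttCgggaaaacacgtga
Rps9, chr1:74430423-74430452, minus strand: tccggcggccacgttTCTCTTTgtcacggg
Rps16, chr1:92770643-92770672, plus strand: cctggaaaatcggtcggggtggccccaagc
Rpl3, chr7:113507976-113508005, minus strand: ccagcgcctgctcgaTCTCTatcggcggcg
Rpl3l, chr10:14258431-14258460, plus strand: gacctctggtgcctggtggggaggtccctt
Rps27, Rpl39, Rps9 and Rpl3 begin with such a run, and Rpl41, Rps16 and Rpl3l do not begin with a C or T. In Rps2 a long run of pyrimidines ends at the first base of the annotated start. The absence of a run says only that these letters are not at this annotated position.

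Between MI and Sham most ribosomal protein genes differed little, and a few rose or fell slightly. The question of this comparison is which genes an infarct alters in the surviving muscle. Rps27, Rpl39 and Rpl41 rose in MI hearts and Rps2 fell, with fold values between 0.832 and 1.26, and the other 63 members did not pass. The 4 called members make 5.97% of the list, against 3.61% of all 22523 probes in this comparison (1.89% higher and 1.72% lower), a share that rests on few genes. The median log2 difference of the members was 0.05, against -0.0044 over all probes. Of the members, 47 of 67 (70.1%) lay above 0, against 47.2% of all probes. A difference of less than 0.2 on the log2 scale, in either direction, was found in 59 of the 67 members and in 20873 of the 22523 probes. The other 8 members and 1650 probes differed by 0.2 or more, which is a larger share of the members than of all probes. These tests were made with limma over all probes, with the rat as block and Benjamini-Hochberg adjustment over all of them, and a gene is said to rise or fall where the adjusted p was below 0.05.

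Rps27, a small subunit protein with a zinc finger, had log2 signals of 15.22, 14.87, 15.26 and 15.24 in MI+T4 hearts 5 to 8, 15.50, 15.12, 15.20 and 15.46 in MI hearts 5 to 8, and 14.99, 14.88, 14.98 and 15.10 in Sham rats 1 to 4. All MI rats lay above all Sham rats, with MI replicates 5 and 8 clearly on top. The mean was 15.32 ± 0.18 in MI and 14.99 ± 0.09 in Sham (SD, n = 4 each), which is a rise by log2 0.33 (SE 0.080, 1.26 times, adjusted p = 0.0183 in limma). Of the MI+T4 rats, replicate 6 lay below the Sham rats and the other 3 above them.

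Rpl39, a small large-subunit protein at the peptide exit tunnel, had 14.23, 13.91, 13.85 and 14.12 in MI rats, against 13.83, 13.70, 13.76 and 13.77 in Sham rats. Again replicates 5 and 8 stood out, while replicates 6 and 7 lay just above the highest Sham rat. The rise was log2 0.26 (SE 0.069, 1.20 times, adjusted p = 0.0276 in limma). Rpl41, the shortest protein of the large subunit, had 15.95, 15.81, 15.80 and 15.98 in MI rats, against 15.56, 15.60, 15.63 and 15.71 in Sham rats. Here too the groups did not overlap. The rise was log2 0.26 (SE 0.069, 1.20 times, adjusted p = 0.0290 in limma).

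Rps2, a small subunit protein near the entry of the message, was the member that fell. It had 11.80, 11.95, 11.81 and 11.94 in MI+T4 hearts, 11.51, 11.81, 11.66 and 11.61 in MI hearts, and 11.68, 11.86, 12.08 and 12.05 in Sham rats. The MI+T4 rats lay inside the range of the Sham rats. The MI and Sham groups overlapped, since MI replicate 6 lay above Sham replicate 1. The difference between MI and Sham was log2 -0.27 (SE 0.068, 0.832 times, adjusted p = 0.0234 in limma). Among the members that did not pass, Rpl22l1 (log2 -0.13) and Rpl24 (log2 -0.11) lay lowest after Rps9, whose values follow below.

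**Figure D1:**
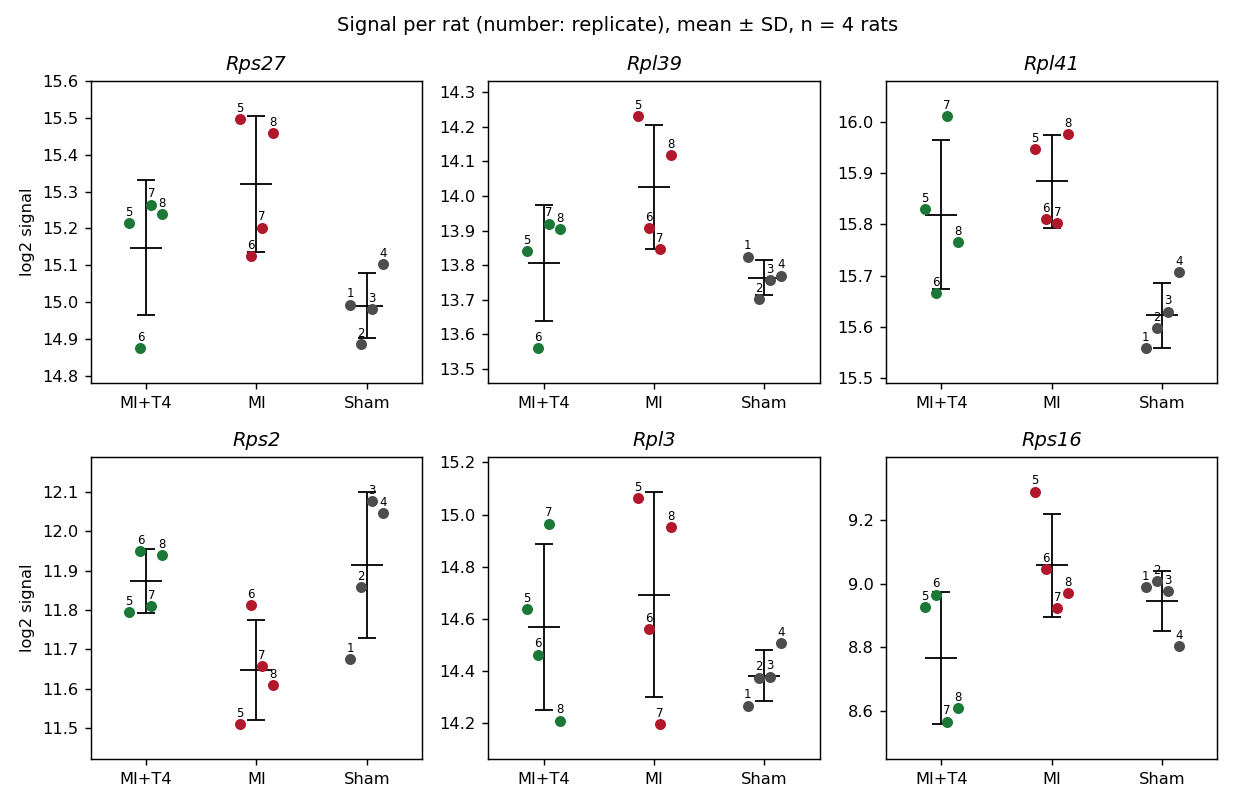
Log2 signal (vertical axes, each with its own range) of 6 ribosomal protein genes in the 4 rats of MI+T4, MI and Sham. Points are rats with their replicate number, and the bars give mean ± SD. In Rps27, Rpl39 and Rpl41 all MI rats lie above all Sham rats, and in Rpl3 the MI rats spread from 14.20 to 15.06.

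The MI and Sham rats did not overlap in 4 members (5.97%), which were Rps27, Rpl39, Rpl41 and Rpl6, another large subunit gene. Over all probes 5.8% did not overlap. Without the adjustment, 13 members had p under 0.05 on the higher side and 3 on the lower side, against 6.94% and 7.38% of all probes. These p-values, and the SE values printed here, can be too small. The model uses 1 correlation for all probes, 0.243 for paired arrays, while for Rps27, Rpl39 and Rps2 the paired arrays correlated at 0.693, 0.856 and 0.792 about the group means, and for Rpl41 at 0.282. With 1 mean per rat no member passed and no probe passed in limma, with 7 of 67 members and 2561 probes (11.4%) at an unadjusted p under 0.05.

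The calls turned on single rats, and the count over all probes moved with the MI or Sham rat left out too, between 193 and 1574 in place of 814. Without MI replicate 5, without MI replicate 8, or without Sham replicate 3, no member was called, and 248, 193 and 478 probes were called in these fits. Leaving out Sham replicate 2 kept only Rps2, and leaving out Sham replicate 4 kept Rps27 and Rpl41. Without Sham replicate 1 Rpl41 was lost and Rpl23 was called. Without MI replicate 7, 7 members were called, with Rpl3, Rpl23 and Rps23 in addition, and so were 1574 probes (6.99%). With MI replicates 5 and 8 both left out, a choice made after seeing the data, no member and 31 probes were called, and the median of the members was -0.0077.

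Within a rat, many members deviated together. The median over the 67 members, as a difference from the mean of the Sham rats, was 0.02, -0.06, 0.09 and -0.0025 in MI+T4 rats 5 to 8. It was 0.10 and 0.11 in MI replicates 5 and 8 and 0.02 and -0.04 in MI replicates 6 and 7, and the Sham rats ran from -0.04 to 0.02. Thus 1 MI+T4 rat and 2 MI rats lay above every Sham rat, and the other rats lay among or below them. The same rats were on top in both subunits. The 23 genes of the small subunit had medians of 0.10 and 0.12 in MI replicates 5 and 8, and the 43 genes of the large subunit had 0.12 and 0.11. Over the 539 other probes with a mean signal of 13 or more, the medians of these rats were -0.08 and -0.07, in the direction opposite to that of the members.

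**Figure D2:**
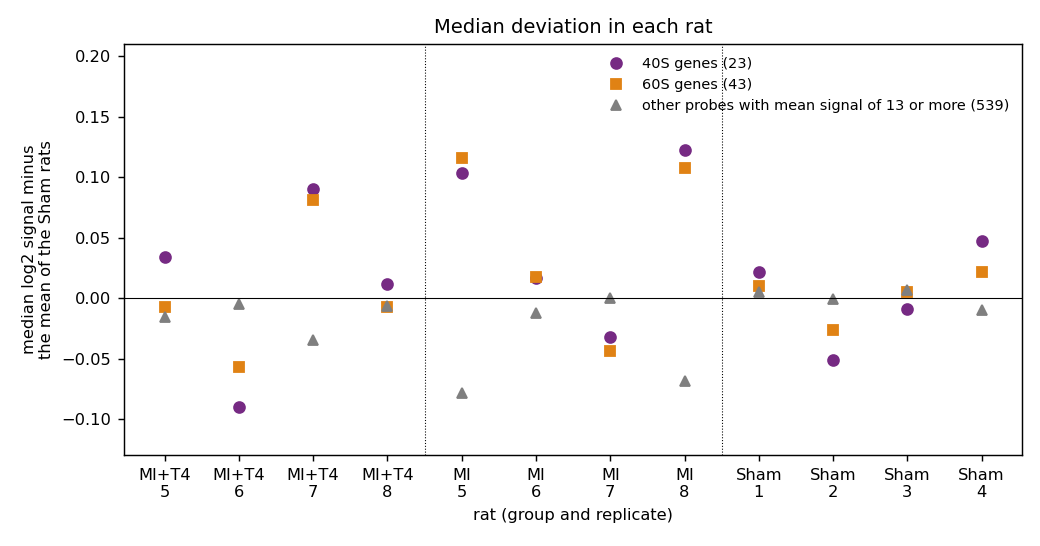
Median log2 signal of the 23 genes of the small subunit, the 43 genes of the large subunit and 539 other bright probes in each of the 12 rats, as the difference from the mean of the 4 Sham rats. MI+T4 replicate 7 and MI replicates 5 and 8 have the highest medians of both subunits, and in the MI rats 5 and 8 the other bright probes lie below 0.

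Taken as each rat's difference from its group mean, the 44 members with a mean signal of 13 or more had a median pairwise correlation of 0.46 over 946 pairs. The 539 other probes of that brightness had 0.03 among themselves, and -0.14 with these members. For the 23 members under that signal the median was 0.06. The rats, arrays and normalization are shared by all these pairs, and no test was made of these values.

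MI+T4 replicate 7 and MI replicates 5 and 8, with the highest ribosomal protein medians, also had the highest means of fibroblast markers. MI replicates 5 and 8 had the lowest means of cardiomyocyte markers, whereas MI+T4 replicate 7 lay near the other MI+T4 rats. The mean log2 signal of 10 fibroblast markers was 12.85 in MI+T4 replicate 7 and 11.86 to 12.43 in the other MI+T4 rats. It was 13.25 and 13.11 in MI replicates 5 and 8 and 12.34 and 12.05 in MI replicates 6 and 7, while the Sham rats had 11.86 to 12.40. Of the 10, 4 rose (Cd248, Col3a1, Dpt and Pdgfra) and none fell in MI against Sham. Over all probes 1.89% were called higher and 1.72% lower in that comparison, and the marker counts rest on few genes. The mean of 9 cardiomyocyte markers was 14.54 to 14.57 in the MI+T4 rats, 14.35 and 14.42 in MI replicates 5 and 8, 14.54 and 14.50 in replicates 6 and 7, and 14.49 to 14.59 in the Sham rats. Ckm, the muscle creatine kinase, fell in MI and the other 8 did not pass. Of 7 macrophage markers none passed, with means of 9.33 to 9.99 in the MI+T4 rats, 9.55 to 10.02 in the MI rats and 9.10 to 9.69 in the Sham rats. Among 7 red blood cell markers Hba-a1 and Hbb rose in MI against Sham. The list means were 9.98 to 10.17 in the MI+T4 rats, 10.03 to 10.30 in the MI rats and 9.87 to 9.96 in the Sham rats. None of 7 lymphocyte markers or 8 endothelial markers passed, and 2 of the 7 lymphocyte markers lay below the median signal. Between MI+T4 and Sham, 2 of the 10 fibroblast markers and 2 of the 7 red blood cell markers rose, where 1.26% of all probes were called. No marker passed between MI+T4 and MI, and with 1 mean per rat none passed in any comparison. The part of these cell types in the ribosomal protein signal was not tested.

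**Figure D3:**
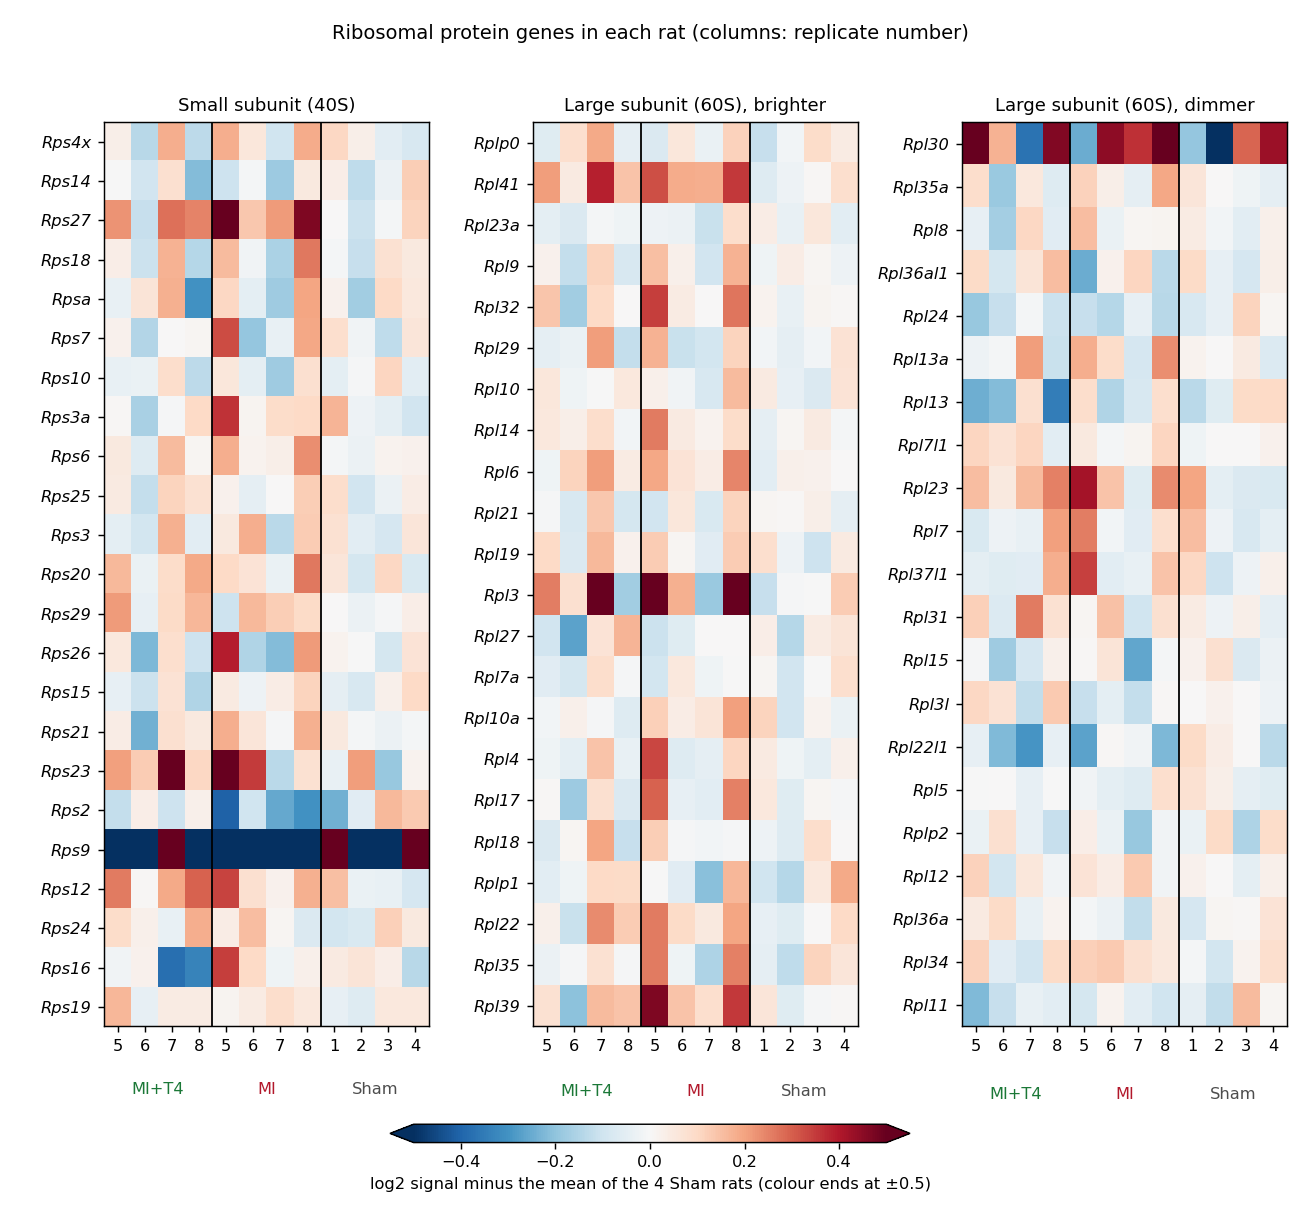
Colour gives the log2 signal of 66 ribosomal protein genes (rows, Rps19bp1 left out) in each rat (columns, by group and replicate) minus the mean of the 4 Sham rats, with the genes of each subunit ordered by mean signal. In MI replicates 5 and 8, 48 and 54 of the 67 members lie above the Sham mean (red), against 38 and 23 in MI replicates 6 and 7, 20 to 47 in MI+T4 rats and 17 to 45 in Sham rats, whereas Rps9, Rpl30 and Rps2 follow patterns of their own.

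After T4 treatment, no ribosomal protein gene differed from the placebo-treated infarcted hearts beyond the threshold. This comparison asks which genes T4 alters after an infarct. In limma 0 of 67 members and 0.0% of all probes were called, with 9 members at an unadjusted p under 0.05 (2 higher and 7 lower). Over all probes 3.74% were higher and 3.68% lower at that level. With 1 mean per rat 0 members were called as well, and 5 of 67 had an unadjusted p under 0.05, against 5.45% of all probes. The median log2 difference of the members was -0.04, against 0.0025 over all probes, and 42 of 67 lay below 0, against 10844 of all 22523 probes. That median lay between -0.081 and -0.013 when single rats were left out, and turned to 0.015 with MI replicates 5 and 8 both left out, a choice made after seeing the data. The MI rats of this comparison are those of the comparison with Sham, so high values in MI replicates 5 and 8 enter both.

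Rps16, a small subunit gene, differed most on the lower side. It had 8.93, 8.97, 8.57 and 8.61 in MI+T4 hearts 5 to 8, 9.29, 9.05, 8.92 and 8.97 in MI hearts 5 to 8, and 8.99, 9.01, 8.98 and 8.80 in Sham rats. MI+T4 replicates 7 and 8 lay below every MI and Sham rat. The difference between MI+T4 and MI was log2 -0.29 (SE 0.077, adjusted p = 0.206 in limma). Rpl39 had 13.84, 13.56, 13.92 and 13.91 in MI+T4 rats against the MI values above, a difference of log2 -0.22 (SE 0.069, adjusted p = 0.322). Rps27 differed by -0.17 and Rpl13 by -0.17. Rpl13, a large subunit protein, had 11.99, 12.02, 12.31 and 11.89 in MI+T4 hearts, 12.32, 12.08, 12.15 and 12.32 in MI hearts, and 12.10, 12.17, 12.33 and 12.33 in Sham rats. On the higher side stood Rps2 (log2 0.23, SE 0.068, adjusted p = 0.300), Rpl36al1 (0.12) and Rpl3l (0.12), and Rps9 (0.75), which is described below. The MI+T4 and MI rats did not overlap in 1 member (1.49%), Rpl10a, which was lower in MI+T4 (log2 -0.12). Over all probes 2.99% did not overlap.

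Against Sham, the T4-treated infarcted hearts differed in none of the 67 members beyond the threshold, while 1.26% of all probes were called. Of the members, 8 had an unadjusted p under 0.05 (4 higher and 4 lower), against 5.03% of all probes higher and 5.2% lower. On rat means 2 of 67 had, against 7.67% of all probes. The smallest adjusted p was 0.186 in limma, for Rps12, a small subunit protein, with 11.66, 11.41, 11.59 and 11.70 in MI+T4 rats and 11.55, 11.37, 11.37 and 11.32 in Sham rats. All but replicate 6 of the MI+T4 rats lay above every Sham rat. Rps23, a protein of the decoding center, differed by log2 0.24 (SE 0.0996), Rpl41 by 0.20 (SE 0.069) and Rpl30 by 0.19 (SE 0.17). Rpl41 had 15.83, 15.67, 16.01 and 15.77 in MI+T4 rats, of which only replicate 6 lay inside the Sham range. On the lower side were Rps9 (-0.39), which is described below, Rpl13 (-0.18), Rps16 (-0.18) and Rpl22l1 (-0.15). The median of the members was 0.0049, against -0.0019 over all probes, with 37 of 67 (55.2%) above 0, against 48.7% of all probes. The groups overlapped in every member, while they did not overlap in 4.76% of all probes.

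**Figure D4:**
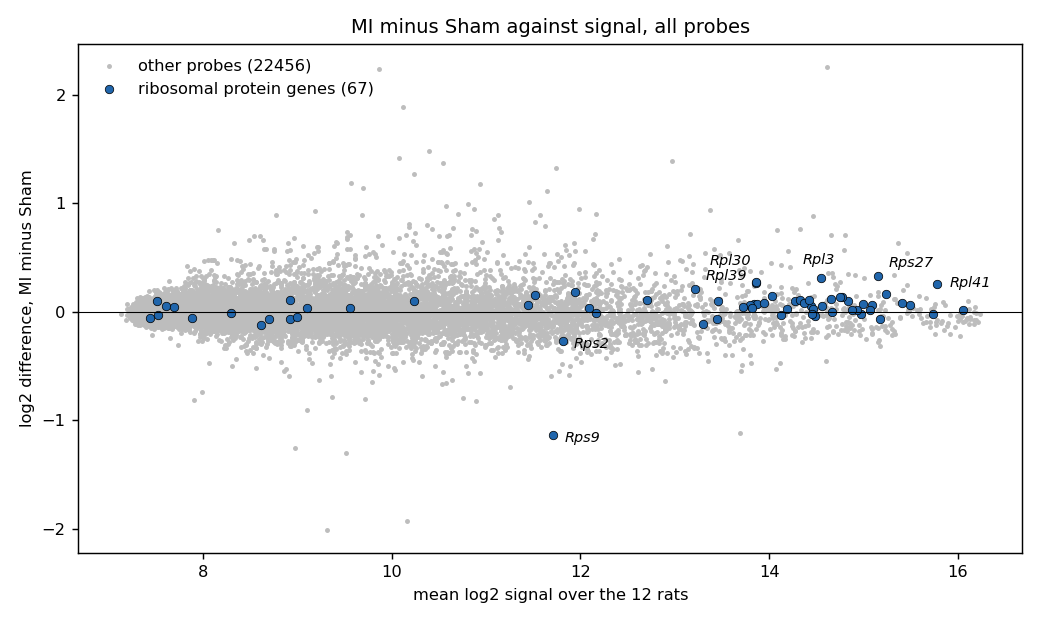
The log2 difference of MI minus Sham (vertical axis) against the mean log2 signal over the 12 rats (horizontal axis) for 22456 other probes and the 67 ribosomal protein genes. Most members lie at high signal within 0.2 of 0, and Rps9 lies at -1.14.

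Rps9, a small subunit protein needed for accurate decoding, split the rats into separate levels that did not follow the groups. The brighter probe had 11.16, 10.96, 13.79 and 11.43 in MI+T4 hearts 5 to 8, 11.13, 10.88, 11.18 and 11.15 in MI hearts 5 to 8, and 13.63, 10.95, 10.76 and 13.56 in Sham rats 1 to 4. MI+T4 replicate 7 and Sham replicates 1 and 4 were high, and the other 9 rats lay at least 2.14 lower on the log2 scale. A second probe of the gene had 8.37, 8.13, 12.58 and 8.34 in MI+T4 hearts, 8.26, 8.20, 8.43 and 8.24 in MI hearts, and 12.46, 8.21, 8.18 and 12.32 in Sham rats, a gap of 3.89 between the same rats. Both arrays of each rat gave the level of its mean, high or low. The difference of MI against Sham was log2 -1.14 (SE 0.48 and adjusted p = 0.242 in limma with the rat as block, SE 0.72 with 1 mean per rat). It moved between -1.63 and -0.67 when single rats were left out. Between MI+T4 and Sham it was -0.39, and turned to 0.08 without Sham replicate 1 and to 0.06 without Sham replicate 4. The spread of Rps9 within groups (pooled SD 1.19) was above that of 99.96% of the probes, against a median SD of 0.11 for the members and 0.07 for all probes.

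Rpl30, a large subunit gene, also spread within every group. It had 14.20, 13.88, 13.34 and 14.17 in MI+T4 hearts, 13.46, 14.15, 14.07 and 14.25 in MI hearts, and 13.51, 13.18, 13.995 and 14.13 in Sham rats. MI+T4 replicate 7, MI replicate 5 and Sham replicates 1 and 2 were low, so high and low rats were found in each group. The difference of MI against Sham was log2 0.28 (SE 0.17 and adjusted p = 0.522 in limma with the rat as block, SE 0.24 with 1 mean per rat). It was 0.10 without Sham replicate 2 and 0.45 without MI replicate 5. Rpl3, next in spread, had 14.64, 14.46, 14.97 and 14.21 in MI+T4 hearts, 15.06, 14.56, 14.20 and 14.95 in MI hearts, and 14.27, 14.38, 14.38 and 14.51 in Sham rats. Its high rats were MI+T4 replicate 7 and MI replicates 5 and 8. The Rpl3 difference of MI against Sham was log2 0.31 (SE 0.12 and adjusted p = 0.201 in limma with the rat as block, SE 0.18 with 1 mean per rat). It was 0.19 without MI replicate 5 and 0.48 without MI replicate 7.

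**Figure D5:**
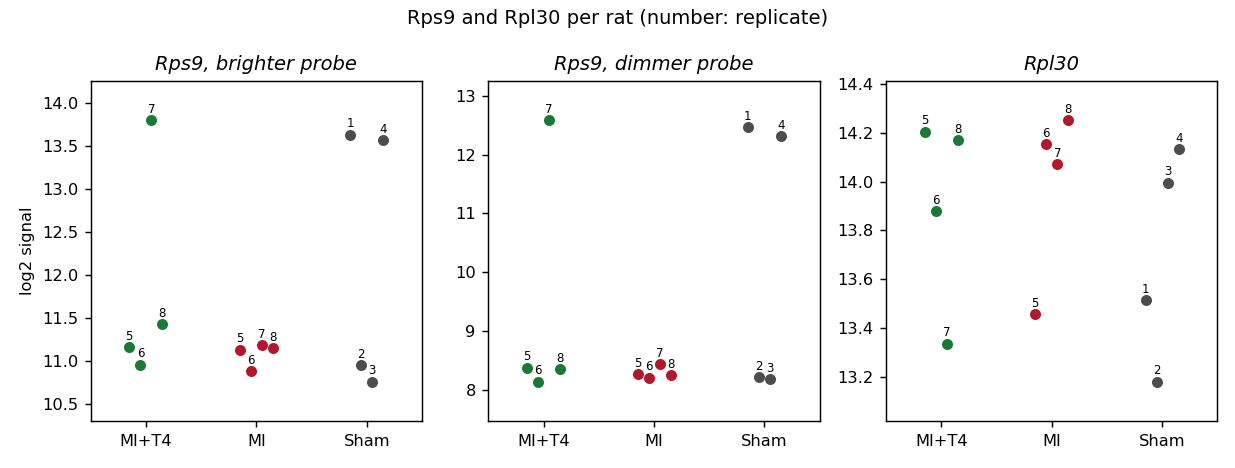
Log2 signal (vertical axes, each with its own range) of both Rps9 probes and of Rpl30 in the 12 rats, with replicate numbers. In both Rps9 panels MI+T4 replicate 7 and Sham replicates 1 and 4 form the upper level, and in Rpl30 each group holds both high and low rats.

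Some paralogs can replace a standard subunit protein in ribosomes. None of the 4 measured genes of the paralog list passed in any comparison, and whether they do so here was not tested. Rpl3l, the form of Rpl3 found in heart and skeletal muscle, had 8.81, 8.78, 8.59 and 8.84 in MI+T4 hearts, 8.59, 8.66, 8.59 and 8.71 in MI hearts, and 8.71, 8.73, 8.71 and 8.69 in Sham rats. MI+T4 replicate 7 lay at the level of the lowest MI rats and the other 3 above all MI rats, and the difference between MI+T4 and MI was log2 0.12 (SE 0.049, adjusted p = 0.564 in limma). Rpl22l1, the paralog of Rpl22, had a mean of 8.56 ± 0.13 in MI+T4, 8.59 ± 0.14 in MI and 8.71 ± 0.10 in Sham (SD, n = 4 each). Rpl22 itself had 14.02 ± 0.15, 14.10 ± 0.10 and 13.95 ± 0.07 in these groups. Rpl7l1 differed by at most 0.06 and Rpl7 by at most 0.07 in any comparison. Rps4x, the X-linked small subunit gene, differed by 0.08 between MI and Sham (adjusted p = 0.689).

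The stalk and scaffold members showed no called difference either. Rplp0, the base of the stalk that recruits elongation factors and a common reference gene, had a mean of 16.07 ± 0.12 in MI+T4, 16.05 ± 0.09 in MI and 16.03 ± 0.09 in Sham (SD, n = 4 each). Its partners Rplp1 and Rplp2 differed by 0.06 or less in any comparison, and Rpsa, the laminin receptor protein of the small subunit, by 0.04 or less. The Rplp2 probe had a mean signal of 7.89, close to the median signal of all probes, where a difference can be understated. Rps18, Rpl13a and Rpl32 also serve as reference genes in expression work. Rps18 differed by log2 0.06 between MI and Sham, Rpl13a by 0.11 and Rpl32 by 0.16 (SE 0.074, adjusted p = 0.288 in limma). Rps6, the substrate of the S6 kinases, differed by 0.12 (SE 0.052, adjusted p = 0.287). The SE of these differences was 0.063 at the median of the members, so that differences of 0.1 in log2 lie within 2 SE of 0 for a member of typical error.

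Other genes of translation were counted from lists. Over all probes 1.89% were called higher and 1.72% lower between MI and Sham, and the list counts rest on few genes. Between MI and Sham, 1 of 28 initiation factor genes rose and 1 fell. Eif4a1, the RNA helicase of the cap-binding complex, rose by log2 0.31 (SE 0.069, adjusted p = 0.00973) with 11.95, 11.53, 11.53 and 11.66 in MI rats, against 11.35, 11.38, 11.33 and 11.37 in Sham rats. Eif2b4, a subunit of the exchange factor that recharges eIF2, fell by log2 0.26 (adjusted p = 0.0271 in limma). Of 49 genes of ribosome biogenesis, 3 fell and none rose: Polr1b, a subunit of RNA polymerase I (-0.25), Imp3, a processing factor of the small subunit (-0.22), and Nop56, a core protein of nucleolar RNA particles (-0.19). None of 13 elongation genes or of 11 regulators of ribosomal protein messages, such as Mtor and Myc, passed. Rack1, a ribosomal protein whose name lies outside the rule, differed by 0.01.

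Between MI+T4 and MI no gene of these lists passed. Between MI+T4 and Sham, Eif1b (-0.20) and Eif2s2 (-0.23), a subunit of eIF2, fell among the 28 initiation genes. Pno1, a factor of small subunit assembly, fell by log2 0.21 among the 49 biogenesis genes. Over all probes 1.26% were called in that comparison, in either direction. With 1 mean per rat no gene of these lists passed in any comparison.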

How the data were processed

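The deposited values, read as log2 signals because the methods name a transformation similar to log2, were made by the authors with a variance stabilizing transformation and then robust spline normalization, with no probe filtered. They hold 22523 probes on 24 arrays, with array medians of 7.81 to 7.82. A table of non-normalized signals was left aside. Its 48 columns carry chip positions that nothing pairs with samples, so no detection filter could be set. Names came from the array annotation through Entrez identifiers, with current symbols from RefSeq.

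Group means were fitted in limma 3.58.1 (statmod 1.5.0, R 4.3.3) to all probes, with the rat as block (correlation 0.243), eBayes and Benjamini-Hochberg adjustment over all probes of a comparison. The pipeline was tested on simulated data. Medians over members carry no test. The members and lists were chosen with earlier results of these data known. The text names every called member, the 4 largest rises and falls of each comparison, paralogs and 8 fixed genes, and of other lists the called genes. Cell markers called between MI+T4 and Sham are given as counts. Rpl6, Rpl10a, Rpl23 and Eef1a1 lie outside that rule and were chosen after their values were seen. Mtor, Myc and Rack1 were not called and are named as examples of their lists. Nothing in the labels says how the RNA extractions were grouped. Arrays limit precision by their number. Alternatives were rat means, the BeadChip as block or alone, fewer groups, a trended robust prior, other adjustments, quantile normalization, brighter probes, other probe choices, left-out rats and the replicate block. Python 3.11.15 and matplotlib 3.10.9 drew the figures.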

Additional observations from a re-analysis of the deposited data

Results flagged for a closer look

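Of 87 groups of 4 rats examined (27 named members, the second Rps9 probe and the median of the members, in 3 groups each), 5 held a rat whose gap to the next rat exceeded Dixon's 95% limit for its share of the range, and chance gives about 1 in 20. Rps9 in MI+T4 was high in replicate 7 at 13.79, against 10.96 to 11.43 in the other rats, and its second probe at 12.58, against 8.13 to 8.37. In MI, Rps9 was low in replicate 6 at 10.88, against 11.13 to 11.18. Rps27 in MI+T4 was low in replicate 6 at 14.87, against 15.22 to 15.26. Rps16 in Sham was low in replicate 4 at 8.80, against 8.98 to 9.01.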

How the results depend on the processing

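Between MI and Sham, 4 members were called, and 0 with rat means, with the arrays of technical replicate 1 alone, with those of technical replicate 2 alone, and with MI replicates 5 and 8 both left out, which also moved the median of the members to -0.0077. Leaving out single rats gave 0 to 7 called members in that comparison, and medians of 0.03 to 0.08. Over all probes rat means called 0 in place of 814. The BeadChip as block, quantile normalization, a trended robust prior and only the compared groups called the same 4 members. The nested F, adjustment over the 3 comparisons together and a fit to the brighter probes called Rps2, Rps27 and Rpl39, with 2.19%, 2.47% and 5.29% of the probes tested called in these fits. These 3 genes were 4.48% of the members in the first 2 fits. The brighter probes held 62 of the members, of which they were 4.84%.

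Between MI+T4 and MI the only called member appeared with the replicate block, where 1 member (Rps16) and 37 probes were called. The nested F called 94 probes and the adjustment over the 3 comparisons together 74, with no member among them. The labels give MI and MI+T4 rats the same numbers and do not say whether these pair the rats. The correlations of same-numbered rats, replicates 5 to 8, were 0.11, 0.25, -0.53 and -0.48. The best match among the MI rats had the same number for MI+T4 replicates 5 and 6, and another number for replicates 7 and 8. Such correlations cannot decide whether rats were paired by handling. Between MI+T4 and Sham no alternative called a member. With MI replicates 5 and 8 left out, Rpl3 in MI against Sham was -0.0031 and Rpl36al1 in MI+T4 against MI was -0.0091. Rps9 in MI+T4 against Sham turned to 0.077 without Sham replicate 1 and 0.055 without Sham replicate 4, within a range of -1.05 to 0.077 over the rats left out. The cause was not tested. Signals near the floor of the array bound 5 members from below, and without them the medians moved by less than the spread between rats.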

Other observations

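Besides both Rps9 probes, 2 of all probes had the same 3 rats on top with a gap of over 1 on the log2 scale, and the annotation used here names neither. Probe ILMN_1365113 had 9.02, 9.15, 13.40 and 9.26 in MI+T4 hearts, 9.003, 9.21, 9.28 and 9.20 in MI hearts, and 13.25, 9.09, 8.90 and 13.18 in Sham rats. Probe ILMN_1353766 had 7.68, 7.59, 8.93 and 7.66 in MI+T4 hearts, 7.62, 7.64, 7.70 and 7.57 in MI hearts, and 8.99, 7.73, 7.70 and 9.06 in Sham rats.

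Eef1a1, the elongation factor that brings aminoacyl-tRNA to the ribosome, had 15.43, 15.27, 15.55 and 15.06 in MI+T4 hearts, 15.83, 15.30, 15.09 and 15.70 in MI hearts, and 15.25, 15.07, 15.09 and 15.17 in Sham rats. MI+T4 replicate 7 and MI replicates 5 and 8 were its highest rats, as for the median of the ribosomal protein genes. It differed between MI and Sham by log2 0.34 (SE 0.11, adjusted p = 0.0875 in limma).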
